A study of Mus musculus with 20 samples.

Results

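The complement genes C3, C1qa, C1qb, C1qc, C3ar1, C5ar1, Cfp, Cfb and C4b were followed across 20 libraries of total RNA from mouse macrophages grown from bone marrow (BMDM). The members were chosen by name, as the rows whose Ensembl identifier carries 1 of these 9 symbols in GENCODE M21. Earlier results of these data were known at that choice, so counts of called members beside all genes are a description only. Of the 9 genes, 7 had a row among the 14456 genes of the count table, and Cfb and C4b were not analysed here. BMDM were grown from the marrow of male wild-type C57BL/6J mice aged 8 to 12 weeks, and were differentiated for 6 days in 25 ng/ml M-CSF, the cytokine that drives macrophage growth.

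In the glucose experiment, the high glucose group of 4 libraries came from BMDM given 25 mM glucose over 24 h, and the normal glucose group of 4 had 5.5 mM glucose plus 19.5 mM mannitol, a sugar alcohol that matches the osmotic load. In the exosome experiment, naive BMDM received PBS, exosomes of BMDM kept in normal glucose (BMDM–NG-exo) or exosomes of BMDM kept in high glucose (BMDM–HG-exo). There were 4 libraries in each group, both kinds of exosome were given at 2000000000 particles per ml, and the cells were harvested after 24 h. Exosomes are small vesicles that cells release and other cells take up. The glucose level of the medium of the recipient cells is not given in the sources used here. The 4 dates in the sample labels recur in all 3 exosome groups, whereas the glucose libraries carry numbers only. The labels do not say whether libraries of a group came from separate mice or cultures. The study states that samples of the exosome experiment came from separate exosome preparations. The p-values rest on the spread between these libraries, which the limma fits draw toward a trend across all genes. A gene's p-value can therefore be smaller or larger than its own spread would give.

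Complement is a cascade of plasma proteins that marks microbes and dying cells for removal. C1q, built from the chains encoded by C1qa, C1qb and C1qc, recognises its target and starts the classical pathway, and properdin, encoded by Cfp, stabilises the enzyme of the alternative pathway. Both pathways cleave C3, the central component, whose fragments coat the target or act on receptors such as C3aR, encoded by C3ar1. C5aR1, encoded by C5ar1, binds the fragment C5a and draws in phagocytes. Macrophages are a major source of C1q and properdin in tissues.

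The totals of recovered reads ran from 34016445 to 56310712 per library, with PBS the group with the lowest median (36622308) and BMDM–NG-exo the one with the highest (47923964). All 7 macrophage markers were listed, and their summed normalized counts per library ran from 620335 to 871350. None of the 6 dendritic cell, 4 B cell and 3 erythroid markers was listed. The 5 listed of 8 neutrophil markers summed to at most 378 normalized counts, the 4 of 7 fibroblast markers to at most 372, the 1 of 4 T cell markers to at most 117 and the 2 of 3 endothelial markers to at most 456.

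All 9 genes lie on the minus strand of GRCm38. C1qb (ENSMUSG00000036905, chromosome 4 from 136880129 to 136886187), C1qc (ENSMUSG00000036896, 136889804 to 136893065) and C1qa (ENSMUSG00000036887, 136895917 to 136898803) stand side by side within 18.7 kb. C3 (ENSMUSG00000024164) lies on chromosome 17 from 57203970 to 57228136, Cfp (ENSMUSG00000001128) on X from 20925454 to 20931555, C3ar1 (ENSMUSG00000040552) on chromosome 6 from 122847138 to 122856161 and C5ar1 (ENSMUSG00000049130) on chromosome 7 from 16246743 to 16259540. C4b and Cfb lie on chromosome 17 from 34728380 to 34743882 and from 34856374 to 34862518.

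The 250 bases before the transcription start of C3, C1qb and Cfp are shown because C3 and Cfp moved in opposite directions with glucose, while all 3 genes were lower after BMDM–HG-exo than in PBS. They are RefSeq sequences of GRCm38.p6, read 5′ to 3′ on the minus strand at chr17:57228137-57228386, chr4:136886201-136886450 and chrX:20931556-20931805. Capitals mark a match to 1 of 6 motifs searched on both strands, with N for any base.
C3: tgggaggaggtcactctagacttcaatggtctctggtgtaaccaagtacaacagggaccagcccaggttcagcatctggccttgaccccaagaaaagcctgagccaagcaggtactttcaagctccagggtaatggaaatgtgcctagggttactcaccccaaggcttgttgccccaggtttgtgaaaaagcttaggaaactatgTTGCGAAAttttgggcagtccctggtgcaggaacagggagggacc
C1qb: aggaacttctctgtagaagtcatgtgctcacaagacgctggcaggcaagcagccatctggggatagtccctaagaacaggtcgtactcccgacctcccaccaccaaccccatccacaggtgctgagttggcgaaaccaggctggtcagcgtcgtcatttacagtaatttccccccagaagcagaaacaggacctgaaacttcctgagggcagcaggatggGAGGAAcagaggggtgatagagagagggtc
Cfp: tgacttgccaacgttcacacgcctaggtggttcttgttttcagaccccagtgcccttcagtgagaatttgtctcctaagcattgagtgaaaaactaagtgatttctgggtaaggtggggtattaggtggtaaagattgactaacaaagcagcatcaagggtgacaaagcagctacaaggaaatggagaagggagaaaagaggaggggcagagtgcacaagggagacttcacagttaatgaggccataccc
The capitals in C3 are a match to the C/EBP motif TTGCNNAA and begin 45 bases before the start. Of 32851 promoters of this length, 9.56% hold that motif. The capitals in C1qb match the PU.1 motif GAGGAA, begin 30 bases before the start, and belong to a motif found in 23.2% of the promoters. The window of Cfp held no match, and none of the 6 members with an entry held the ISRE (GAAA, any 2 bases and GAAA, 2.98% of promoters), GAS (TTCNNNGAA, 7.02%) or NF-kB (GGGA, any 2 bases and TTCC, 1.21%) motif. The AP-1 motif TGANTCA (6.75% of promoters) was found before C3ar1, and PU.1 also before C1qc. No marked match overlaps another, and these matches describe letters only.

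Transcripts of the 7 listed genes were abundant, with between 2612 and 49221 reads per gene and library. Scaled to exon length, the mean levels over the 20 libraries were 30391 normalized counts per kb for C1qb, 15457 for C1qc, 9225 for C3ar1, 8099 for C1qa, 3881 for C5ar1, 2748 for Cfp and 839 for C3. Thus C1q chains and the C3a receptor exceeded C3 itself per length of transcript.

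**Figure D1:**
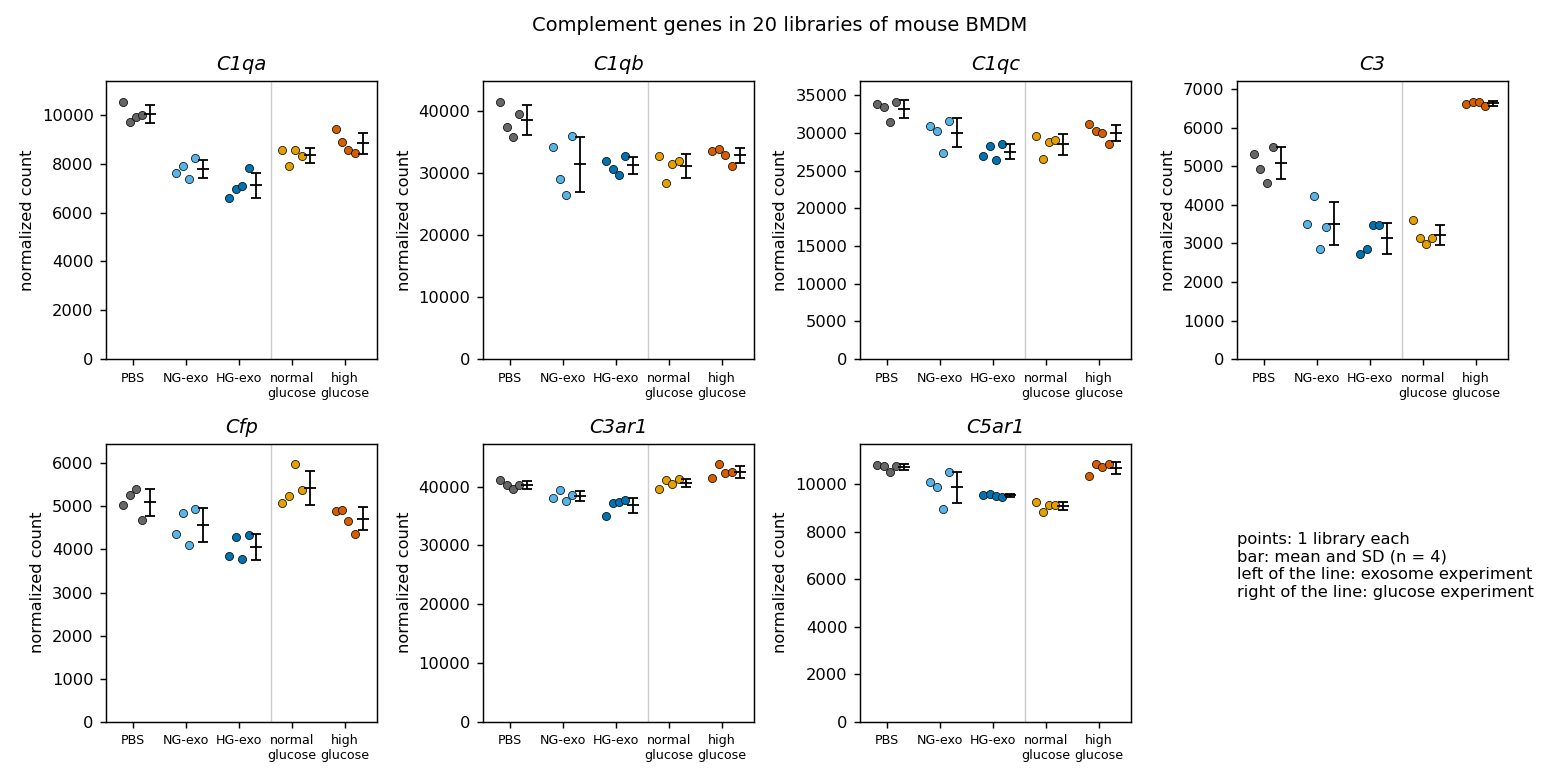
Normalized counts (y axis, from 0) of the 7 listed complement genes in the 5 groups (x axis), with 1 point per library and bars for the mean and SD (n = 4). The 4 high glucose libraries of C3 lie between 6571 and 6682, above every other library, and each C1qa library in PBS lies above every library of the other groups.

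High glucose raised C3 2.06-fold, raised C5ar1 modestly and lowered Cfp, while the C1q chains and C3ar1 did not pass the test. The comparison asks what glucose itself does to macrophages. C3 stood at 6609, 6682, 6675 and 6571 normalized counts in high glucose and at 3608, 3151, 2998 and 3130 in normal glucose. The groups were far apart, and the high glucose libraries lay close together. The means were 6634 ± 53.6 and 3222 ± 266 (SD, n = 4), a log2 fold change of 1.05 (SE 0.0467, limma, BH-adjusted p = 2.51e-18, where BH stands for the Benjamini-Hochberg method over all genes tested). C3 had the smallest p of the 14425 genes tested, among which log2 fold changes reached 3.15.

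C5ar1, the C5a receptor gene, stood at 10330, 10835, 10716 and 10836 normalized counts in high glucose and at 9265, 8837, 9132 and 9107 in normal glucose. All high glucose libraries were above all normal glucose libraries, with a log2 fold change of 0.23 (SE 0.0355, limma, BH-adjusted p = 8.41e-06). Cfp went the other way, at 4904, 4926, 4661 and 4357 in high glucose against 5079, 5233, 5976 and 5388 in normal glucose. Its groups did not overlap either, and the log2 fold change was -0.20 (SE 0.0477, limma, BH-adjusted p = 0.00308). The call of Cfp was lost without a variance trend (BH-adjusted p = 0.144) and with the library number as a block (BH-adjusted p = 0.0777).

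The C1q chains had log2 fold changes of 0.08 (C1qa), 0.08 (C1qb) and 0.07 (C1qc), each with overlapping groups, and their BH-adjusted p-values lay between 0.18 and 0.189. C3ar1 stood at 41404, 43784, 42392 and 42410 in high glucose and at 39650, 41064, 40427 and 41234 in normal glucose. These groups did not overlap, yet the log2 fold change of 0.07 (SE 0.0311) had a BH-adjusted p of 0.174. In all, 3 of 7 members passed the test, 2 higher and 1 lower, where 13.3% of all genes passed (7.74% higher and 5.53% lower). No overlap between the groups was found for 4 of 7 members and for 16.3% of all genes. The median log2 fold change was 0.08 over the members and -0.003 over all genes tested.

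Macrophage markers moved in the same comparison. Lyz2, Csf1r, Cd14 and Adgre1 were higher in high glucose and Mertk and Cd68 lower, and the summed macrophage markers ran from 800169 to 871350 normalized counts in high glucose against 620335 to 694578 in normal glucose. Their part in the result was not tested. In bulk RNA, a smaller number of expressing cells and less RNA per cell cannot be told apart.

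C3, C1qa and C1qb were lower in naive BMDM that received either kind of exosome than in those that received PBS, with C3 and C1qa falling most. C1qc, Cfp and C5ar1 were also lower after BMDM–HG-exo. The exosome comparisons ask whether vesicles from macrophages, and from macrophages in high glucose in particular, change recipient macrophages. A gene was called here at a BH-adjusted p under 0.05, provided that the log2 fold change was 0.15 or more in either direction. C3 stood at 5324, 4932, 4566 and 5504 normalized counts in PBS, at 3507, 4241, 2867 and 3435 after BMDM–NG-exo and at 2720, 2862, 3478 and 3480 after BMDM–HG-exo. Every PBS library was above every exosome library, and the 2 exosome groups overlapped. Against PBS, BMDM–HG-exo gave a log2 fold change of -0.70 (SE 0.0780, limma, BH-adjusted p = 8.12e-08) and BMDM–NG-exo one of -0.54 (limma, BH-adjusted p = 1.55e-05).

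C1qa, the A chain of C1q, stood at 10544, 9724, 9908 and 9977 normalized counts in PBS. It fell to 7631, 7903, 7373 and 8241 after BMDM–NG-exo and to 6576, 6968, 7089 and 7817 after BMDM–HG-exo. Again the PBS libraries lay apart from both exosome groups, which overlapped each other. The log2 fold changes against PBS were -0.37 for BMDM–NG-exo (BH-adjusted p = 5.1e-07) and -0.50 for BMDM–HG-exo (BH-adjusted p = 5.27e-10).

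C1qb, the B chain, stood at 41533, 37426, 35895 and 39475 in PBS, at 34214, 29039, 26413 and 36022 after BMDM–NG-exo and at 31878, 30589, 29757 and 32711 after BMDM–HG-exo. The BMDM–NG-exo libraries spread widely and overlapped PBS, whereas the BMDM–HG-exo libraries did not. Its log2 fold changes were -0.31 for BMDM–NG-exo (BH-adjusted p = 0.000498) and -0.30 for BMDM–HG-exo (BH-adjusted p = 3.0e-04). C1qc, the C chain, stood at 33796, 33455, 31501 and 34154 in PBS, at 30972, 30192, 27289 and 31648 after BMDM–NG-exo and at 26880, 28231, 26398 and 28563 after BMDM–HG-exo. The BMDM–HG-exo change was -0.27 (log2, BH-adjusted p = 3.28e-06), and that of BMDM–NG-exo, -0.15 (BH-adjusted p = 0.0163), stayed just under the fold limit.

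Cfp, the properdin gene, stood at 5024, 5269, 5400 and 4688 normalized counts in PBS, at 4361, 4841, 4108 and 4942 after BMDM–NG-exo and at 3841, 4292, 3773 and 4342 after BMDM–HG-exo. Only the BMDM–HG-exo libraries lay wholly below PBS, with a log2 fold change of -0.33 (SE 0.0550, limma, BH-adjusted p = 8.43e-05). For BMDM–NG-exo it was -0.16 (limma, BH-adjusted p = 0.117).

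The receptors had the smallest changes. C5ar1 stood at 10822, 10774, 10525 and 10785 in PBS and at 9543, 9591, 9487 and 9476 after BMDM–HG-exo, a log2 fold change of -0.17 (limma, BH-adjusted p = 0.00331). After BMDM–NG-exo it was at 10074, 9891, 8955 and 10523, all below PBS but more scattered, and the change of -0.12 did not pass (limma, BH-adjusted p = 0.0708). C3ar1 stood at 41126, 40268, 39504 and 40265 in PBS, at 38100, 39358, 37487 and 38607 after BMDM–NG-exo and at 35011, 37145, 37331 and 37708 after BMDM–HG-exo. Both exosome groups lay below PBS, and the log2 fold changes of -0.07 and -0.13 were under the fold limit (for BMDM–HG-exo, limma, BH-adjusted p = 0.00351).

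**Figure D2:**
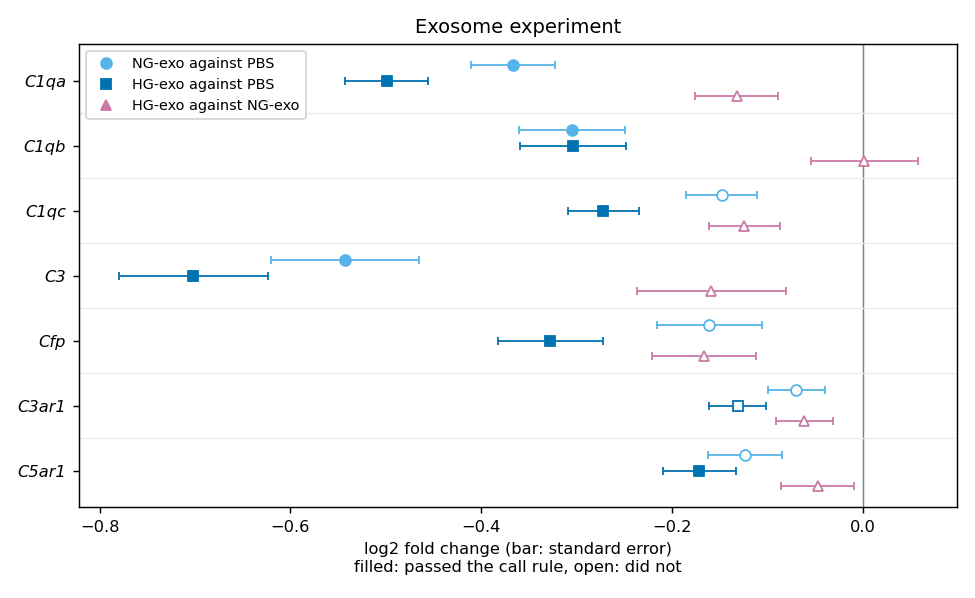
Log2 fold changes (x axis) of the 7 complement genes (y axis) in the 3 exosome comparisons, with bars for the standard error, filled symbols for genes that passed the BH-adjusted p and fold limits and open symbols for those that did not. All values against PBS lie left of 0, from -0.07 to -0.70, while no symbol of BMDM–HG-exo against BMDM–NG-exo is filled.

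The counts that follow are a description, since the members were chosen with earlier results of these data known. In total, 6 of 7 members were called lower after BMDM–HG-exo than in PBS, where 4.84% of all genes were called, 3.08% lower. Of the 7, 3 were called lower after BMDM–NG-exo (C3, C1qa and C1qb), where 3% of all genes were called, 2.11% lower. No overlap with PBS was found for all 7 members after BMDM–HG-exo, against 10% of all genes, and for 4 after BMDM–NG-exo, against 8.27%. The median log2 fold change of the members was -0.30 after BMDM–HG-exo and -0.16 after BMDM–NG-exo, and 0.003 and 0.005 over all genes. The 2 comparisons share their PBS libraries. Without a variance trend, 3 members were called after BMDM–HG-exo and 1 after BMDM–NG-exo. The calls lost after BMDM–HG-exo were those of Cfp, C5ar1 and C1qb (limma, BH-adjusted p = 0.0605, 0.103 and 0.145). Those lost after BMDM–NG-exo were C3 and C1qb (limma, BH-adjusted p = 0.0976 and 0.206). Without BMDM–NG-exo library 4, 6 members were called for BMDM–NG-exo against PBS.

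BMDM–HG-exo and BMDM–NG-exo differed in none of the 7 members by the call rule. Log2 fold changes ran from -0.17 (Cfp) to 0.00 (C1qb), and 6 of 7 were negative, against 7280 of 14413 over all genes. The limma test with BH adjustment gave 0 calls among the members and 2 among all genes (0.0139%), and edgeR and DESeq2 also gave 0 members. Of the 15 other listed complement genes, this limma test called 0. DESeq2 called 1 of them, as did limma with the date as a block and limma without BMDM–NG-exo library 1. An unadjusted limma p under 0.05 was found for 5 of the 7 (Cfp, C1qc, C1qa, C3ar1 and C3), against 942 of 14413 genes. For C1qc, limma with the date as a block gave a BH-adjusted p of 0.0334 at a log2 fold change of -0.12, under the limit. The SE of each of these log2 fold changes was between 0.0297 and 0.0780, so small differences in either direction cannot be told from none.

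Against the 8 control libraries (PBS and BMDM–NG-exo together), all 7 members were lower after BMDM–HG-exo, and 1 was called, C1qc (log2 fold change -0.20, SE 0.0433, limma, BH-adjusted p = 0.0488). Of all 14413 genes, 7183 had a negative log2 fold change, and 0.201% were called, 0.132% lower. These controls pool PBS with BMDM–NG-exo, after which C3, C1qa and C1qb were themselves called lower than in PBS. C1qc was lower there too (log2 fold change -0.148, limma, BH-adjusted p = 0.0163), just under the fold limit. The values therefore do not separate a difference between the 2 kinds of exosome from one between exosomes and PBS. Cfp (-0.25) and C1qa (-0.32) both had a BH-adjusted p of 0.0617, and C3 (-0.43) one of 0.105. The call of C1qc was kept in 4 of 12 fits that left out 1 library, being lost without any 1 PBS library, without BMDM–NG-exo 4 and without BMDM–HG-exo 1, 2 or 3. Depending on the library left out, 0 to 4 members were called, with 4 when BMDM–NG-exo 3 was absent.

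Macrophage markers moved here too. Fcgr1, Adgre1, Cd14 and Csf1r were called lower than PBS after both kinds of exosome, and Mertk, Lyz2 and Cd68 were not called in either. The summed markers ran from 784813 to 831521 normalized counts in PBS, 709126 to 766307 after BMDM–NG-exo and 727433 to 753025 after BMDM–HG-exo. PBS also had the lowest median depth. The part of both in the result was not tested.

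For 4 members, the change with glucose in the cells themselves differed from the change between the exosomes made in the same media. For C3, high against normal glucose minus BMDM–HG-exo against BMDM–NG-exo came to 1.20 on the log2 scale (SE 0.105, limma, BH-adjusted p = 8.4e-11). It was 0.28 for C5ar1 (BH-adjusted p = 0.000335), 0.21 for C1qa (BH-adjusted p = 0.0311) and 0.20 for C1qc (BH-adjusted p = 0.0234). These 4 of 7 members were called higher, where 4.74% of all genes were called and 3.27% higher. C3 and C5ar1 were called in all 20 fits that left out 1 library, whereas C1qc was called in 15 and C1qa in 12. Cfp, with negative values in both contrasts, had a difference of -0.03 (SE 0.0791), and those of C1qb and C3ar1 were 0.08 and 0.13, not called. The groups belong to 2 experiments, and experiment and treatment enter only as differences within each.

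**Figure D3:**
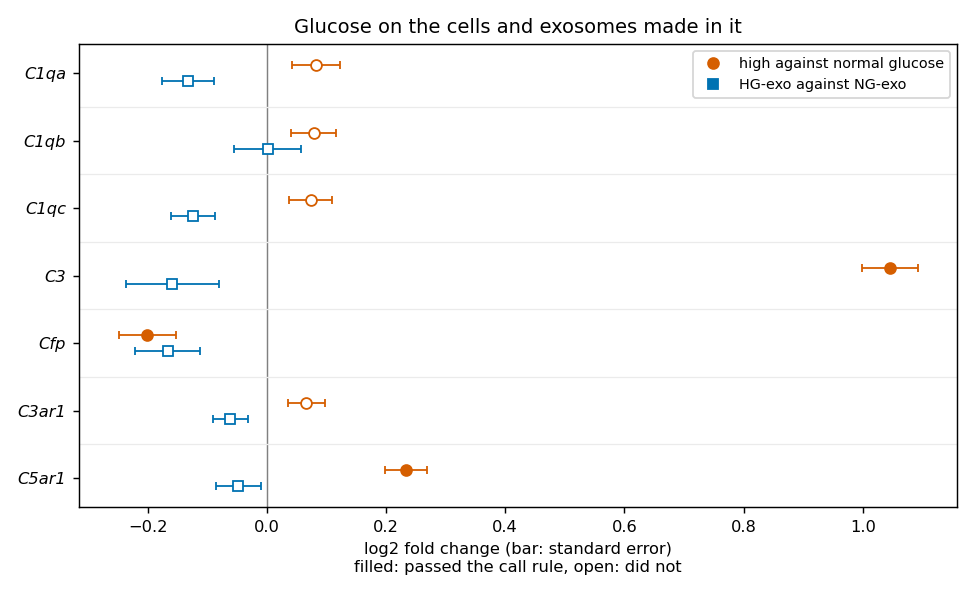
Log2 fold changes (x axis) of the 7 complement genes (y axis) for high against normal glucose and for BMDM–HG-exo against BMDM–NG-exo, with bars for the standard error and filled symbols for genes that passed the call rule. C3 lies at 1.05 for glucose and at -0.16 for exosomes, whereas Cfp lies left of 0 in both.

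Ordered over all 5 groups, C3 was highest in high glucose, followed by PBS and then BMDM–NG-exo, normal glucose and BMDM–HG-exo, and the last 3 overlapped. C1qa and C1qb were highest in PBS, which did not overlap the next group (high glucose), and the other 4 groups overlapped their neighbours in the order. For C1qb, however, the highest BMDM–NG-exo library (36022) lay above the lowest PBS library (35895). Cfp was highest in normal glucose (5419 ± 392, SD, n = 4) and lowest after BMDM–HG-exo (4062 ± 296, SD, n = 4). C5ar1 was lowest in normal glucose (9085 ± 180, SD, n = 4), and C3ar1 was highest in high glucose (42498 ± 978, SD, n = 4). Levels across the 2 experiments are a description and were not tested.

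The chains of C1q assemble in equal numbers, and their transcripts were compared as ratios. C1qa over C1qc, both per kb, was 0.561 ± 0.0236 (SD, n = 4) in PBS, 0.482 ± 0.0183 after BMDM–NG-exo and 0.480 ± 0.0275 after BMDM–HG-exo, and 0.544 ± 0.0110 and 0.547 ± 0.0119 in normal and high glucose. The PBS libraries lay above both exosome groups (log2 differences of -0.22 and -0.23, exact two-sided permutation test, p = 0.0286, the smallest that 4 against 4 allows, and 0.114 after Benjamini-Hochberg adjustment over 12 tests). C1qb over C1qc was 2.06 ± 0.0851 in PBS, 1.85 ± 0.162 after BMDM–NG-exo (log2 difference of -0.16, exact two-sided permutation test, p = 0.0571, adjusted 0.171) and 2.02 ± 0.0753 after BMDM–HG-exo (p = 0.457, adjusted 0.686, by the same exact test). C1qa over C1qb was 0.273 ± 0.0112 in PBS, 0.262 ± 0.0303 after BMDM–NG-exo and 0.238 ± 0.0159 after BMDM–HG-exo (SD, n = 4). Against PBS, its log2 difference was -0.20 after BMDM–HG-exo (exact two-sided permutation test, p = 0.0286, adjusted 0.114). After BMDM–NG-exo it was -0.06 (p = 0.457, adjusted 0.686, by the same exact test). These ratios were chosen after the values were seen.

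**Figure D4:**
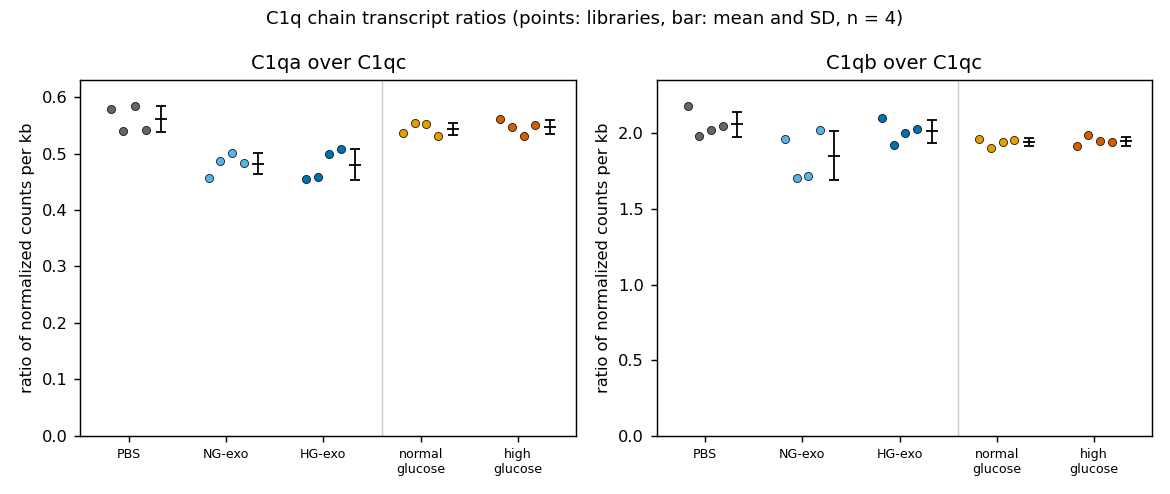
Ratios of normalized counts per kb of C1qa (left) and C1qb (right) over C1qc (y axis, from 0) in the 5 groups (x axis), with 1 point per library and bars for the mean and SD (n = 4). For C1qa the PBS mean is 0.561 and both exosome groups lie near 0.48, while the glucose groups are at 0.544 and 0.547.

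Among 42 other complement genes, 15 were listed: C1ra and Fcna (recognition), C2, C4a and C8g (cascade), Cr1l, C1qbp, Cd59a, Cd59b and Cd46 (regulators) and Itgam, Itgb2, Itgax, C5ar2 and Cd93 (receptors). With high glucose, 1 of 15 was called, Cd93, which encodes a C1q receptor-related protein of myeloid cells (log2 fold change -0.10, limma, BH-adjusted p = 0.0287), where 13.3% of all genes were called and 5.53% were called lower. It was at 24029 ± 279 normalized counts in high glucose and at 25751 ± 432 in normal glucose (SD, n = 4), but was not called with the library number as a block (limma, BH-adjusted p = 0.413) or without a variance trend (limma, BH-adjusted p = 0.162). The call was also lost without normal glucose library 5 or 6 and without any one of the high glucose libraries 1, 2, 4 and 6 (limma, BH-adjusted p from 0.055 to 0.0985). Under the alternatives, 0 to 2 of the 15 genes were called with high glucose. After BMDM–NG-exo, Cd93 was higher than in PBS by 0.146 on the log2 scale (limma, BH-adjusted p = 0.00164), just under the fold limit of 0.15. That limit applied to the exosome comparisons and not to glucose, so the calls of Cd93 in the 2 experiments follow different rules.

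Itgam, the alpha chain of complement receptor 3, fell with exosomes. It stood at 9703, 9100, 9689 and 9428 normalized counts in PBS, at 7668, 8931, 8382 and 8533 after BMDM–NG-exo and at 6611, 7301, 7628 and 7678 after BMDM–HG-exo. PBS did not overlap either exosome group. Against PBS, the log2 fold changes were -0.18 (BH-adjusted p = 0.0147) and -0.38 (BH-adjusted p = 2.72e-07), and against the combined controls BMDM–HG-exo gave -0.29 (BH-adjusted p = 0.0125). The call of BMDM–HG-exo against PBS held under every alternative run. That of BMDM–NG-exo against PBS was lost without a variance trend (BH-adjusted p = 0.261), without PBS library 1 (0.0608) and without BMDM–NG-exo library 1 (0.0986). That against the combined controls was lost without a variance trend (BH-adjusted p = 0.349) and without BMDM–HG-exo library 1 (0.187) or 2 (0.0609). With the date as a block, Itgam was also lower after BMDM–HG-exo than after BMDM–NG-exo (log2 fold change -0.20, BH-adjusted p = 0.0235), and without it the BH-adjusted p was 0.118. Itgb2, which encodes the partner chain, had log2 fold changes of 0.01 and 0.03 against PBS and did not pass. With high glucose its log2 fold change was 0.09 and the groups did not overlap, but it was not called (limma, BH-adjusted p = 0.0545).

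C1ra, a protease gene of the C1 complex, was at 184 ± 26.9 normalized counts in PBS and 124 ± 16.2 after BMDM–HG-exo (SD, n = 4), groups that did not overlap. The log2 fold change of -0.56 had a BH-adjusted p of 0.0564, and of 0.0445 with the date as a block. In each comparison with PBS, 1 of the 15 genes was called lower and none higher, where 3.08% of all genes were called lower after BMDM–HG-exo and 2.11% after BMDM–NG-exo. The median log2 fold change of the 15 was -0.01 after BMDM–HG-exo and -0.01 after BMDM–NG-exo. C2, C8g, Cd59b and Cd46 had few reads, C2 overlaps Zbtb12 and Gm20547, and C4a shares near-identical sequence with C4b, so its counts are uncertain.

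**Figure D5:**
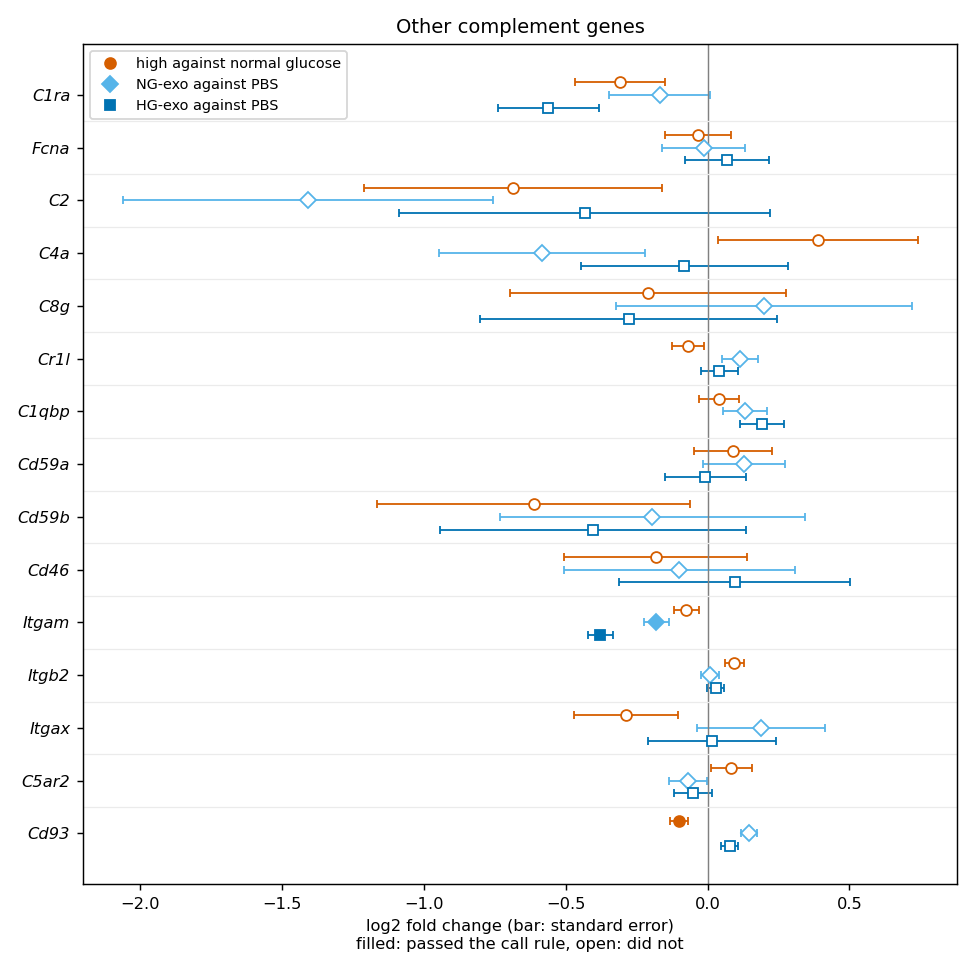
Log2 fold changes (x axis) of the 15 other listed complement genes (y axis) for high against normal glucose and for both kinds of exosome against PBS, with bars for the standard error. Filled symbols mark Itgam after both kinds of exosome (-0.18 and -0.38) and Cd93 with glucose (-0.10), and wide bars belong to genes with few reads such as C2.

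Likeness was measured as the Pearson correlation over the 20 libraries of log2 values after the group means were removed, among 11717 genes that averaged 50 normalized counts or more. Because the group means were removed, it describes variation within groups only. The libraries differed in depth and size factor, and the part of these in the likeness was not tested. The genes most like C3 were Gm26674 (r = 0.82), Cd300ld (0.78), Irgm1 (0.77), Wbp11 (0.76) and Nsmce3 (0.74). For C1qa they were Gbp2 (0.83), Fcrls (0.83), Irgm2 (0.81), Arrb2 (0.80) and Man2b1 (0.80). C1qc came 41st for C1qa (r = 0.69) and C1qb 208th (r = 0.57), although these genes are neighbours on chromosome 4.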

How the data were processed

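Total RNA of mouse BMDM was made into stranded libraries and sequenced on a NovaSeq. The authors trimmed the reads (cutadapt in the submitters' processing notes), mapped them with STAR to GRCm38, counted them per gene with featureCounts with strand, and scaled each library with a DESeq2 size factor (median ratio). The deposited signal is therefore a normalized count. Whole reads were recovered from the smallest step of each column (100% of values within 0.001 of a whole number), and were used for totals and for edgeR and DESeq2. The median over libraries was 11 reads or more for every gene in the table. No 2 libraries of a group were copies (chi-square per degree of freedom 5.19 to 41.9 over 30 pairs).

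Groups were compared on log2(normalized count + 1) in limma 3.58.1 (R 4.3.3, lmFit, eBayes with trend), two-sided, with Benjamini-Hochberg adjustment over all genes with a mean of at least 10. Glucose and exosome libraries were fitted separately, and the difference of both effects in all 20 libraries. Genes were called at an adjusted p under 0.05, and for exosomes only when the log2 fold change also reached 0.15 in either direction. The labels give the same 4 dates in each exosome group. Libraries of the same date correlated with a mean r of 0.012 after removal of group means (12 pairs), those of different dates with -0.004 (36 pairs). Alternatives changed the pseudocount, filter, normalization, trend, tool (edgeR 4.0.16, DESeq2 1.42.0), block and libraries, and the fits were tested on simulated data. Genes named were all members, the called genes among 42 other complement genes (at most 10), and the 5 genes most like C3 and C1qa. Itgb2, the partner of Itgam, C1ra, the low-count genes and the macrophage markers were named after their values were seen. The members and lists were chosen with earlier results of these data known, and 2 genes of the lists are not reported here. Gene names and coordinates come from GENCODE M21, promoters from RefSeq, with an entry for 6 of 9 members. Tables were made in Python 3.11.15 with numpy 2.4.6, pandas 2.3.3 and scipy 1.17.1, and plots with matplotlib 3.10.9.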

Additional observations from a re-analysis of the deposited data

Results flagged for a closer look

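In 1 of 35 gene and group combinations a library stood apart by Dixon's test: C5ar1 in the third PBS library, at 10525 normalized counts, below the other 3 (gap over range 0.838). Chance alone marks about 1 in 20 such groups. The effect of glucose on the cells and the effect of the exosomes made in it differed on the log2 scale by 1.20 for C3, 0.28 for C5ar1, 0.21 for C1qa and 0.20 for C1qc, each by the limma test of the difference with Benjamini-Hochberg adjustment.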

How the results depend on the processing

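Of 973 values of single members under an alternative, 904 kept their direction and their side of the threshold, 37 lost a call, 20 gained one and 12 changed sign. The count of members called for BMDM–HG-exo against both controls moved from 1 to 0 with a pseudocount of 0.5, TMM factors, quantile normalization or no variance trend, to 3 with a pseudocount of 5 and to 2 with DESeq2, and ran from 0 to 4 when 1 library was left out. Against PBS without a variance trend it was 3 for BMDM–HG-exo in place of 6 and 1 for BMDM–NG-exo in place of 3, and the latter ran from 3 to 6 when 1 library was left out. For the glucose effect minus the exosome effect it was 2 in place of 4 with quantile normalization and with no variance trend, and 2 to 5 when 1 library was left out. The cause was not tested.

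Values near 0 changed sign. C1qb with glucose was -0.015 with quantile normalization. C1qb between the exosomes was -0.00843 with edgeR and -0.00765 with DESeq2, and -0.078 to 0.071 when 1 library was left out. The glucose effect minus the exosome effect was -0.042 for C1qb with quantile normalization, and -0.074 to 0.015 for Cfp when 1 library was left out.

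With the library number as a block, the log2 fold change of C1qb with glucose was -0.000266, 2 members were called in place of 3, and C3 stayed at 0.97. Only the numbers 1 and 6 occur in both glucose groups, so that value rests on 2 pairs. Libraries with the same number correlated with a mean r of 0.007 (2 pairs) and others with -0.001 (14 pairs). With the date as a block, no call of a member in the exosome comparisons changed. Depth does not limit the members, whose lowest count was 2612 reads, but does limit C2, C8g and Cd59b.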
